A study of Drosophila melanogaster with 4 samples.

Results

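The genes described here are 10 genes of the Jun N-terminal kinase (JNK) pathway and of the wound response of imaginal discs, out of 15627 named genes in the expression table. They were taken by gene symbol, from a set chosen with earlier results of these data known, and all 10 were in the table. They are the kinase genes hep and bsk, the transcription factor genes kay, Jra, Atf3 and Ets21C, and the phosphatase gene puc. The others are the matrix metalloprotease genes Mmp1 and Mmp2, and Ilp8, which encodes a secreted peptide. The RNA came from wing discs, the epithelial sacs from which the adult wing and part of the thorax develop, dissected from Drosophila melanogaster larvae in their last larval stage, the third instar, kept at 25 °C. One library was of Polycomb RNAi discs, which carry the insertion P{Act5C-GAL4}25FO1 together with the transgene UAS-dsRNA Polycomb. The other was of wild-type (WT) discs, which carry P{Act5C-GAL4}25FO1 over the balancer CyO, y+ and no RNAi transgene. Both genotypes are in a y1 w* background, and a balancer is named for WT alone. The GAL4 driver that they share is expressed from the ubiquitous actin 5C promoter, so the knockdown was not limited to one cell type. How many larvae, and of which sex, went into each library is not stated in the labels. Polycomb is the chromodomain subunit of the repressive complex PRC1, and the series title concerns a positive role of it in transcription.

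In the JNK cascade, kinases phosphorylate one another in sequence and the last, JNK, phosphorylates the AP-1 transcription factors Jun and Fos. In wing discs the cascade is switched on at wounds and in dying or stressed cells, where it drives closure of the epithelium, remodelling of the matrix beneath it and regrowth. Among its targets is puc, whose product dephosphorylates JNK and so limits the signal. The activity of the kinases is set by phosphorylation, which RNA levels do not measure.

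Values are FPKM (fragments per kilobase of transcript, scaled by the mapped fragments of each library), which can be compared between genes because they are per length. With 1 library per genotype no value has a replicate error, no test was possible and no p-value is given. Every difference is between these 2 libraries. The log2 difference used below is that of FPKM + 1, Polycomb RNAi minus WT, so low genes are further apart in FPKM than on this scale. Genes with at least 1 FPKM in either library were compared (8800 genes), and a gene at least 2-fold apart on this scale is called higher or lower.

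The libraries as a whole were close. Of the 8800 genes, 4.41% were called higher and 3.20% lower in Polycomb RNAi, and the median log2 difference was -0.0032 with quartiles of -0.14 and 0.14. Pc, the targeted gene, had 13.0 FPKM in Polycomb RNAi and 14.6 FPKM in WT. Reads of the RNAi transgene and of the endogenous gene are not separated in these values, so they do not check the label. Defining genes of the wing disc epithelium were present in both libraries, none of 8 at 0, with a summed level of 530.5 FPKM in Polycomb RNAi and 677.6 FPKM in WT. Of these, 4 of 8 were called lower, led by pdm2 (5.54 FPKM in Polycomb RNAi and 18.2 FPKM in WT), Dll (13.1 FPKM in Polycomb RNAi and 36.7 FPKM in WT) and vg (24.0 FPKM in Polycomb RNAi and 54.2 FPKM in WT). The list went both ways, with 6 of 8 negative and 2 positive, hth (169.1 FPKM in Polycomb RNAi and 137.8 FPKM in WT) and tsh (108.3 FPKM in Polycomb RNAi and 86.5 FPKM in WT). In bulk tissue, fewer cells of a type and less RNA per cell cannot be told apart.

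None of the JNK and wound response genes was called higher or lower in Polycomb RNAi. Of the 10, 9 reached 1 FPKM in at least 1 library, with 0 called in either direction against 4.41% and 3.20% of all genes compared. At those shares few calls would fall among 9 genes in any case, so the count does not set them apart from other genes. Their median log2 difference was 0.14, against -0.0032 over all genes. It was 0.04 with both libraries scaled to the same summed FPKM, a scaling that moved the median of all genes to -0.10. By sign, 7 of the 9 were positive and 2 negative with the deposited values, and 5 positive and 4 negative with equal sums. The entry with the largest FPKM, CG41421, took 16.4% of the sum in Polycomb RNAi and 9.41% in WT. With equal sums taken without it, a setting added later, 7 of the 9 were positive and 2 negative. The median was then 0.15 for the members and 0.0079 over all genes. Of the 9, 5 lay above the upper quartile of all genes (kay, Ets21C, puc, Mmp1 and, just past it, Jra), 4 lay between the quartiles (hep, bsk, Atf3 and Mmp2) and 0 lay below. This tally depends on the minimum of 1 FPKM, which Ets21C passed through the RNAi library alone and which removed Ilp8, at -0.56 on the log2 scale.

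**Figure D1:**
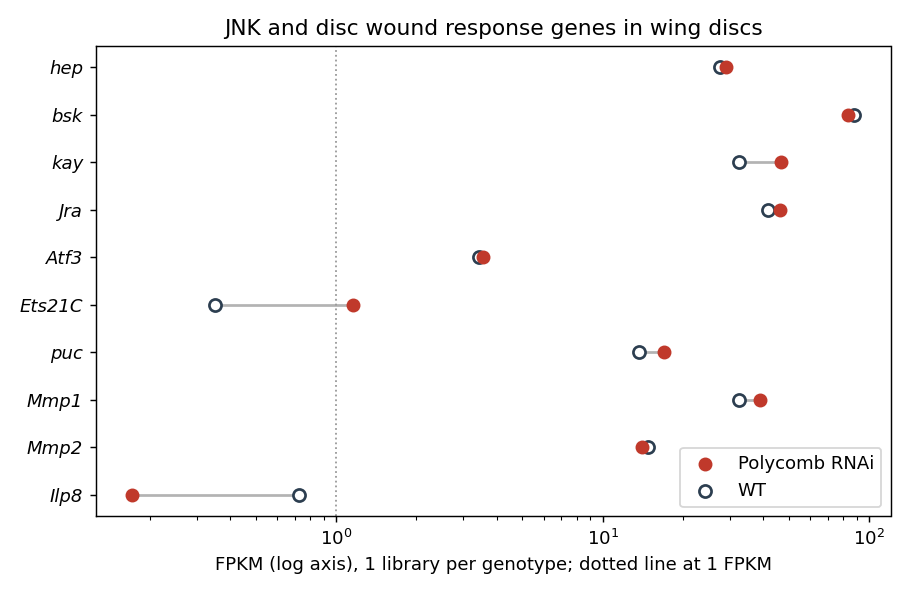
FPKM of each of the 10 genes on a log axis, with filled points for the Polycomb RNAi library and open points for the WT library, 1 library each. Most pairs of points nearly coincide, between 3.44 FPKM for Atf3 and 88.0 FPKM for bsk in WT, and the widest gaps are those of Ets21C and Ilp8 at the bottom of the scale.

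The kinase genes had nearly the same level in both libraries. The gene hep encodes the JNK kinase (MKK7 in mammals) and had 29.0 FPKM in Polycomb RNAi and 27.6 FPKM in WT. The gene bsk encodes JNK itself and was the most abundant of the 10, with 83.4 FPKM in Polycomb RNAi and 88.0 FPKM in WT. The 2 ratios, 1.05 for hep and 0.948 for bsk, were on opposite sides of 1, and hep fell on the lower side, at 0.980, with equal sums. Of all genes compared, 70.7% differed at least as much as hep and 68.9% at least as much as bsk. In each library there was more bsk RNA than hep RNA, by 2.87 times in Polycomb RNAi and 3.19 times in WT.

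Among the AP-1 genes the larger difference was in kay, the Fos gene. It had 46.7 FPKM in Polycomb RNAi and 32.5 FPKM in WT, or 1.44 times the WT level, and its log2 difference was 0.51. Of all genes compared, 16.6% differed at least as much. Jra, the Jun gene whose product pairs with Fos, had 46.2 FPKM in Polycomb RNAi and 41.8 FPKM in WT, a ratio of 1.10. The level of kay was therefore 1.01 times that of Jra in Polycomb RNAi and 0.778 times in WT, a within-library ratio that no rescaling of a library changes. In the order of levels among the 10 genes, kay stood above Jra in Polycomb RNAi and below it in WT. Whether neighbours in that order differ cannot be said, since the spread between replicates is unknown.

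Atf3, which encodes another bZIP protein that can pair with Jun, was much less abundant, with 3.56 FPKM in Polycomb RNAi and 3.44 FPKM in WT. Its log2 difference was 0.04, or -0.04 with equal sums. Of all genes compared, 84.6% differed at least as much. Against Jra, the level of Atf3 was 0.0771 times in Polycomb RNAi and 0.0824 times in WT. These 3 bZIP genes thus held the same broad order in both libraries, with kay and Jra together near the top of the 10 and Atf3 well under them.

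The gene puc, which encodes the JNK phosphatase and is widely used as a readout of JNK signalling in discs, had 16.9 FPKM in Polycomb RNAi and 13.7 FPKM in WT. Its ratio was 1.24, or 1.15 with equal sums, and 27.1% of all genes compared differed at least as much. Per unit of bsk RNA, puc stood at 0.203 in Polycomb RNAi and 0.156 in WT.

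Ets21C had the largest log2 difference of the 9 genes compared, at a low level and with reads that may be shared with an overlapping gene. It encodes an ETS transcription factor that is switched on by JNK in wounded and tumorous discs. It had 1.16 FPKM in Polycomb RNAi and 0.350 FPKM in WT, or 3.32 times the WT level in FPKM and 0.68 on the log2 scale. It passed the minimum of 1 FPKM through the RNAi library alone, and with a pseudocount of 0.1 its log2 difference was 1.49, past 2-fold. Of all genes compared, 12.5% differed at least as much on the FPKM + 1 scale. In a gene table of the Release 6 assembly, the span of Ets21C overlaps that of nAChRbeta3, an acetylcholine receptor subunit gene listed here as nAcRbeta-21C. That gene had 6.83 FPKM in Polycomb RNAi and 2.23 FPKM in WT, or 3.06 times the WT level, with 1.28 on the log2 scale. The overlapping pair thus differed in the same direction by similar ratios, with the receptor gene at the higher level. The libraries carry no strand information, so reads where the 2 genes overlap cannot be told apart, and the labels do not say how the authors divided them. Its part in the Ets21C value was not tested.

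The overlap was looked for in every member. Jra overlaps RpLP0-like, a gene for a ribosome assembly factor, which had 82.1 FPKM in Polycomb RNAi and 108.8 FPKM in WT, a lower value where that of Jra was slightly higher. Mmp1 overlaps Pof, which encodes a protein that coats the fourth chromosome, with 18.8 FPKM in Polycomb RNAi and 15.4 FPKM in WT. The differences of Mmp1 and Pof were alike, at 0.26 and 0.27 on the log2 scale. The gene fig lies within the span of kay and had 0.408 FPKM in Polycomb RNAi and 0.122 FPKM in WT, far under the level of kay. No overlapping protein-coding gene was found for hep, bsk, puc, Atf3 or Mmp2. Mmp2 overlaps small non-coding genes, of which the antisense gene CR44069 had 0.332 FPKM in Polycomb RNAi and 0.346 FPKM in WT.

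**Figure D2:**
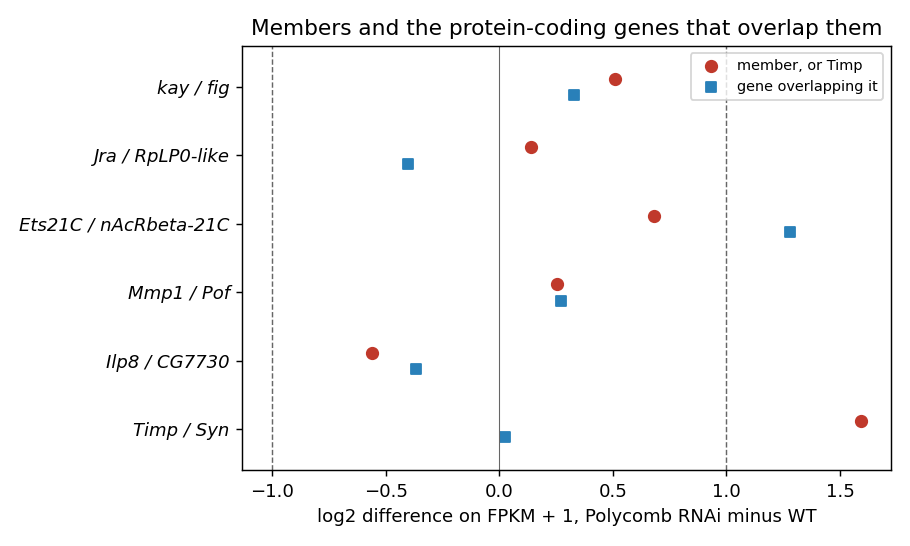
Log2 difference on FPKM + 1, Polycomb RNAi minus WT, of each member that has an overlapping protein-coding gene (circles) and of that gene (squares), with Timp added, and with dashed lines at 2-fold. Ets21C and nAcRbeta-21C are both to the right, at 0.68 and 1.28, while Jra and RpLP0-like are on opposite sides of 0.

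The matrix metalloprotease genes did not differ in the same direction. Mmp1, which encodes a protease that JNK induces at wounds and in invading disc cells, had 38.8 FPKM in Polycomb RNAi and 32.3 FPKM in WT, a ratio of 1.20. Mmp2, which encodes the membrane-anchored protease of the pair, had 14.0 FPKM in Polycomb RNAi and 14.8 FPKM in WT, a ratio of 0.947. Of all genes compared, 30.5% differed at least as much as Mmp1 and 70.3% at least as much as Mmp2. The level of Mmp1 was 2.77 times that of Mmp2 in Polycomb RNAi and 2.18 times in WT.

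Their inhibitor gene Timp was the one gene called among the 87 compared in 7 lists of related genes. The shares over all 8800 genes were 4.41% higher and 3.20% lower, and the lists were chosen with earlier results of these data known. Timp encodes the tissue inhibitor of metalloproteases, which binds both enzymes. It had 20.02 FPKM in Polycomb RNAi and 5.97 FPKM in WT, which is 3.35 times the WT level and 1.59 on the log2 scale, and 3.08% of all genes compared differed at least as much. Mmp1 RNA was 1.94 times Timp RNA in Polycomb RNAi and 5.42 times in WT. Mmp2 RNA was 0.701 times Timp RNA in Polycomb RNAi and 2.48 times in WT, so that Mmp2 was the less abundant RNA of that pair in Polycomb RNAi and the more abundant one in WT. Timp lies within the span of the synapsin gene Syn, which had 0.114 FPKM in Polycomb RNAi and 0.0954 FPKM in WT, near 0 in both. Reck, which encodes a membrane-bound inhibitor of metalloproteases in mammals, had 13.0 FPKM in Polycomb RNAi and 13.5 FPKM in WT.

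The substrates of these proteases in the basement membrane were close between the libraries. Of 10 genes for basement membrane proteins and Mmp inhibitors, 9 were compared. None but Timp was called, against 4.41% higher and 3.20% lower over all genes. The largest of the other differences was that of LanA, a laminin gene, with 99.96 FPKM in Polycomb RNAi and 81.6 FPKM in WT. The collagen IV genes Col4a1, listed as Cg25C, and vkg had 18.9 and 11.2 FPKM in Polycomb RNAi, against 16.2 and 9.70 FPKM in WT. The median of the list was 0.11, or 0.01 with equal sums.

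Markers of haemocytes, the blood cells of the fly, which also make basement membrane proteins, differed in the same direction as Timp and kay. Of 8 haemocyte markers, all at least 1 FPKM in WT and none at 0 in either library, 5 were called higher and all 8 were positive. Over all genes compared, 4.41% were called higher and 3.20% lower. Their summed level was 103.3 FPKM in Polycomb RNAi and 58.2 FPKM in WT, and their median log2 difference was 1.03. The count depended on the scale, with 3 called higher with equal sums, 1 with a pseudocount of 5 and 7 with a pseudocount of 0.1, and the median was 0.59 with a pseudocount of 5. The number called higher over all genes moved as well, from 388 to 347, 134 and 570 under these settings in the same order. The leading markers were He (24.2 FPKM in Polycomb RNAi and 8.72 FPKM in WT), Pxn (14.1 FPKM in Polycomb RNAi and 5.26 FPKM in WT) and Sr-CI (4.41 FPKM in Polycomb RNAi and 1.25 FPKM in WT). The most abundant marker, crq, was close, with 34.7 FPKM in Polycomb RNAi and 31.7 FPKM in WT. The part of these cells in the values of Timp, kay, puc, Ets21C or Mmp1 was not tested.

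Some markers of other cell types a wing disc dissection can hold were called, where 4.41% of all genes compared were called higher and 3.20% lower. Of 10 muscle and myoblast markers, 3 were called higher, TpnC73F (25.3 FPKM in Polycomb RNAi and 8.19 FPKM in WT), wupA (22.5 FPKM in Polycomb RNAi and 8.28 FPKM in WT) and Prm (5.41 FPKM in Polycomb RNAi and 1.79 FPKM in WT), all of them genes of contractile muscle. Act57B, Mhc and Mlc2 were positive without being called, at 0.82, 0.46 and 0.40 on the log2 scale. The myoblast genes Mef2, twi and htl were level, at 0.04, 0.01 and -0.03 on the log2 scale, and kirre had 1.505 FPKM in Polycomb RNAi and 2.43 FPKM in WT. The list's median was 0.43, with a summed level of 231.3 FPKM in Polycomb RNAi and 145.1 FPKM in WT. All 6 tracheal markers were negative and 2 were called lower, obst-A (20.2 FPKM in Polycomb RNAi and 220.0 FPKM in WT) and trh (9.65 FPKM in Polycomb RNAi and 20.7 FPKM in WT), and Gasp had 89.8 FPKM in Polycomb RNAi and 107.1 FPKM in WT. Their summed level was 440.8 FPKM in Polycomb RNAi and 726.1 FPKM in WT, most of whose difference is that of obst-A. Of 6 fat body markers 1 was called lower, Lsp1gamma (465.4 FPKM in Polycomb RNAi and 1675 FPKM in WT), while Lsp2 had 12.03 FPKM in Polycomb RNAi and 21.2 FPKM in WT and Lsp1beta had 696.1 FPKM in Polycomb RNAi and 1070 FPKM in WT. The other fat body markers were closer, with Lsp1alpha at 364.3 FPKM in Polycomb RNAi and 379.6 FPKM in WT, Fbp1 at 801.1 FPKM in Polycomb RNAi and 762.4 FPKM in WT and Fbp2 at 343.0 FPKM in Polycomb RNAi and 305.3 FPKM in WT. The sum over the fat body markers was 2682 FPKM in Polycomb RNAi and 4214 FPKM in WT, most of whose difference is that of Lsp1gamma. None of the muscle, tracheal or fat body markers was at 0 in either library. Their part in the members' values was not tested.

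Ilp8 was below 1 FPKM in both libraries and was not compared by call. It encodes a relaxin-like peptide that damaged or overgrowing discs release, and that delays pupariation through the receptor Lgr3. It had 0.171 FPKM in Polycomb RNAi and 0.724 FPKM in WT, so WT had 4.23 times as much, in the direction opposite to that of Ets21C. The difference may rest on very few reads. For 1159 genes whose 2 values both lay from 0.005 to 0.3 FPKM, the commonest ratio of Polycomb RNAi to WT was 0.951, with 6.82% of them within 1% of it, as would arise if the FPKM of 1 read in Polycomb RNAi were 0.951 times that in WT. Corrected by this, the Ilp8 values stood at 4.02 to 1, WT over Polycomb RNAi, for which the smallest whole numbers are 4 reads in WT and 1 in Polycomb RNAi. Multiples of these would give the same ratio, so the true numbers are unknown. Ilp8 also overlaps CG7730, which had 4.37 FPKM in Polycomb RNAi and 5.92 FPKM in WT, a ratio of 0.738 in the same direction and at a higher level.

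**Figure D3:**
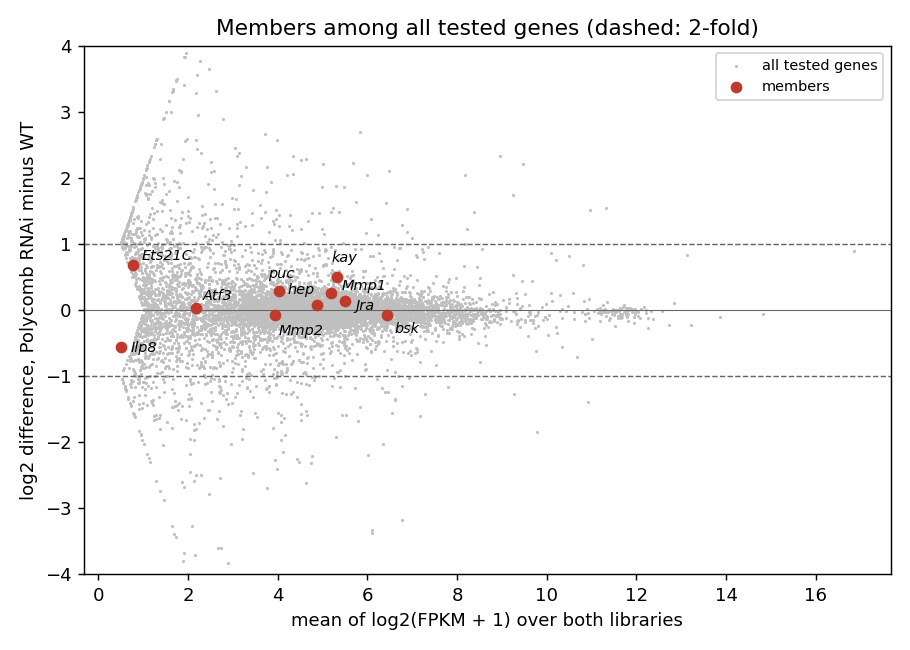
Log2 difference, Polycomb RNAi minus WT, against the mean of log2(FPKM + 1) over both libraries for the 8800 genes compared (grey) and the 10 members (red), with dashed lines at 2-fold and 51 genes beyond the plotted range of 4 in either direction. All members lie between the dashed lines, and Ets21C and Ilp8, with the largest differences, lie at the low end. There the added 1 FPKM limits how far apart the values of a gene can lie on this scale.

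Most other genes of the peptide's axis did not reach 1 FPKM in either library. Of the 12 insulin-like peptide and receptor genes listed, 3 did and were compared. None was called, against 4.41% higher and 3.20% lower over all genes. Lgr3, the receptor gene for Ilp8, had 1.96 FPKM in Polycomb RNAi and 1.25 FPKM in WT. Ilp6 had 5.98 FPKM in Polycomb RNAi and 6.98 FPKM in WT, and the insulin receptor gene InR had 11.2 FPKM in Polycomb RNAi and 13.1 FPKM in WT. The list held 5 genes at 0 in Polycomb RNAi and 3 at 0 in WT.

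Upstream of JNK, none of 25 ligand, receptor, adaptor, GTPase and kinase genes was called, against 4.41% higher and 3.20% lower over all genes. The list's median log2 difference was 0.02. The furthest apart was wgn, which encodes a receptor of the tumour necrosis factor family, with 14.2 FPKM in Polycomb RNAi and 25.4 FPKM in WT, a log2 difference of -0.80. The other receptor gene of that family, grnd, listed as CG10176, had 91.5 FPKM in Polycomb RNAi and 79.9 FPKM in WT, and their ligand gene egr had 8.64 FPKM in Polycomb RNAi and 7.56 FPKM in WT. The adaptor gene Traf4 had 5.33 FPKM in Polycomb RNAi and 7.16 FPKM in WT. The Tec kinase gene Btk29A had 65.4 FPKM in Polycomb RNAi and 75.6 FPKM in WT, and raw, which antagonises JNK signalling in dorsal closure, had 19.7 FPKM in Polycomb RNAi and 16.9 FPKM in WT.

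The parallel MAP kinase genes and phosphatases were as close, with none of 11 called, against 4.41% higher and 3.20% lower over all genes. The list's median was 0.02. The largest difference was that of Mkp3, a phosphatase gene acting on the ERK kinase, with 23.0 FPKM in Polycomb RNAi and 27.9 FPKM in WT. The gene p38a, listed as Mpk2, had 16.03 FPKM in Polycomb RNAi and 13.7 FPKM in WT, p38c had 1.44 FPKM in Polycomb RNAi and 1.17 FPKM in WT, and Dsor1, which encodes the MEK kinase, had 34.4 FPKM in Polycomb RNAi and 32.3 FPKM in WT. Of these, Dsor1 changed sign with equal sums, to -0.01.

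Other transcription factor genes of the same families were within 2-fold. None of the 12 bZIP and stress factor genes compared was called, against 4.41% higher and 3.20% lower over all genes. The furthest apart were maf-S, which encodes a small Maf partner of the oxidative stress factor cnc, with 62.0 FPKM in Polycomb RNAi and 88.3 FPKM in WT, and Irbp18, listed as CG6272, with 36.4 FPKM in Polycomb RNAi and 51.9 FPKM in WT. The clock genes vri and Pdp1 had 20.97 and 3.26 FPKM in Polycomb RNAi, against 15.4 and 4.47 FPKM in WT. None of the 5 ETS genes compared was called, with Eip74EF, an ecdysone-induced gene, at 27.4 FPKM in Polycomb RNAi and 20.97 FPKM in WT and Ets98B at 4.76 FPKM in Polycomb RNAi and 3.91 FPKM in WT. The ETS genes pnt and Ets97D had 10.1 and 19.7 FPKM in Polycomb RNAi, against 10.8 and 19.996 FPKM in WT.

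Further wound and regeneration genes gave no call in 22 compared, against 4.41% higher and 3.20% lower over all genes. The list's median was 0.09, or -0.01 with equal sums. The largest differences were in opposite directions in 2 genes of one pathway, ple and Ddc, whose enzymes act in sequence to make dopamine from tyrosine for cuticle hardening and wound repair. The tyrosine hydroxylase gene ple had 8.38 FPKM in Polycomb RNAi and 16.4 FPKM in WT, a log2 difference of -0.89. The dopa decarboxylase gene Ddc had 9.56 FPKM in Polycomb RNAi and 4.73 FPKM in WT, or 2.02 times the WT level in FPKM and 0.88 on the log2 scale. The gene grh, a regulator of epidermal wound genes, had 47.0 FPKM in Polycomb RNAi and 65.5 FPKM in WT. GstD1, an oxidative stress gene, had 951.0 FPKM in Polycomb RNAi and 698.1 FPKM in WT.

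**Figure D4:**
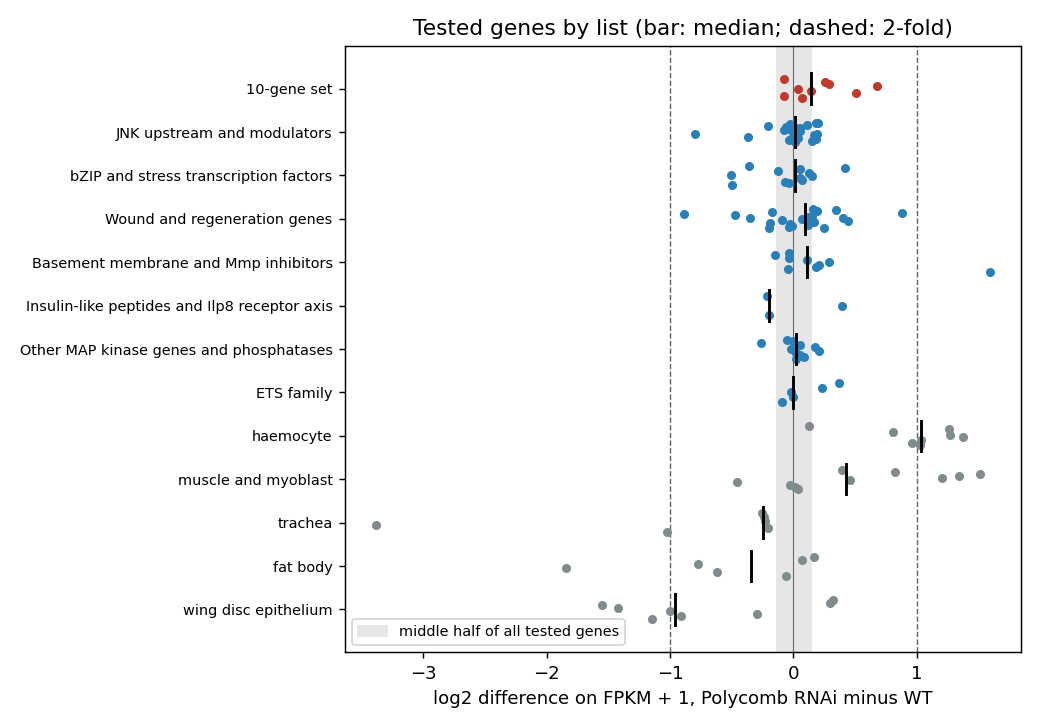
Log2 difference, Polycomb RNAi minus WT, of each gene compared, by list, with black bars at list medians, a grey band between the quartiles of all genes (-0.14 and 0.14) and dashed lines at 2-fold. The points of the 10-gene set and of the pathway lists lie within 2-fold except Timp at 1.59, while the haemocyte median is 1.03 and that of the disc epithelium -0.96.

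Most of the members' values held under other ways of computing the difference, and the exceptions had a low level or a small difference. Across 7 other settings 62 values were obtained. They included 1 change of call, that of Ets21C with a pseudocount of 0.1, and 2 changes of sign, those of hep and Atf3 with equal sums. Settings that alter only the minimum cannot change a gene's value, so their values were fixed in advance. Median centring, with a scale of 1.002, could change little. The value of kay ran from 0.41 with equal sums to 0.52 with a pseudocount of 0.1, and that of puc from 0.19 to 0.31 under the same settings.

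**Figure D5:**
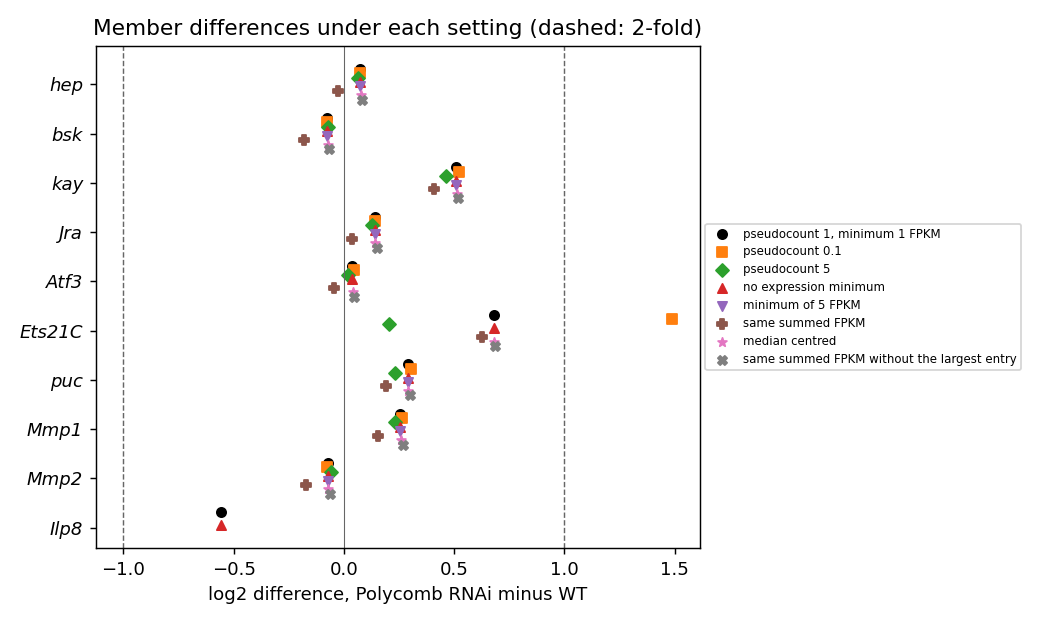
Log2 difference, Polycomb RNAi minus WT, of each member with the pseudocount of 1 and minimum of 1 FPKM (black) and under each other setting, with dashed lines at 2-fold. Only Ets21C spreads widely, from 0.20 with a pseudocount of 5 to 1.49 with a pseudocount of 0.1.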

How the data were processed

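The authors deposited FPKM values for named genes, 1 column per RNA library, without counts, so the sequencing depth is unknown. Per the labels' protocols, total RNA went into unstranded libraries. Per the submitters' processing notes, the build was dm3 and the tools included TopHat2 2.0.11, Cufflinks and CASAVA 1.4. The part of each tool, the annotation and the filters are not stated there. The H4K20me1 peaks and input library were not used here. A row named by a dash (0.206% of the summed FPKM in Polycomb RNAi and 0.127% in WT) was not counted among the genes. A very abundant transcript can shift all other FPKM values, and CG41421 took 16.4% of the sum in Polycomb RNAi and 9.41% in WT.

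Differences were log2((Polycomb RNAi FPKM + 1)/(WT FPKM + 1)), for genes with at least 1 FPKM in either library, computed on the whole table with Python 3.11.15 and NumPy 2.4.6. The calculation was tested on simulated data, with changes well past 2-fold made only in genes well above the minimum in WT. That test did not cover changes in low genes such as Ets21C. Figures used Matplotlib 3.10.9. The lists hold 103 genes in 7 pathway lists, of which 102 were in the table, and 5 marker lists. Over all lists, 14 symbols were matched through synonyms in a Release 6 gene table, which also gave the overlapping genes by name. The members and lists were chosen with earlier results of these data known. Named genes are the 10 members, Pc, every called pathway gene and up to 4 of the largest differences per pathway list, and 3 per marker list. Reck, egr, grnd, crq, hth, tsh, Mef2, twi, htl, kirre, Act57B, Mhc, Mlc2, Lsp1alpha, Fbp1, Fbp2 and the overlapping genes were named after their values were seen. Alternatives were pseudocounts of 0.1 and 5, no minimum or 5 FPKM, equal summed FPKM, median centring and, added after seeing the data, equal sums without CG41421.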

Additional observations from a re-analysis of the deposited data

How the results depend on the processing

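With 1 library per genotype no replicate could be left out, and depth is unknown, so the error of every value is unknown. No paired analysis was possible because each genotype has 1 library. A pseudocount of 0.1 gave 1 of the 9 members called higher, Ets21C at 1.49, against 0 with a pseudocount of 1. With that pseudocount of 0.1, 570 of all 8800 genes compared were called higher and 415 lower. With equal summed FPKM, which moved the median of all genes compared to -0.10, the members' median was 0.0389, and the medians of pathway lists were -0.0922 for bZIP and stress factors, -0.0077 for wound and regeneration genes, 0.0105 for basement membrane and Mmp inhibitor genes, -0.0782 for other MAP kinase genes and -0.10 for ETS genes. Without an expression minimum the median of the insulin-like peptide list was -0.0022. Over all genes, 134 were called higher and 107 lower with a pseudocount of 5, and 189 and 186 with a minimum of 5 FPKM, against 388 and 282. The settings gave 247 values for the 42 genes named from the lists. They include values under other minimums, which cannot differ from those with the minimum of 1 FPKM. Of the 247 values, 4 lost the call, all with a pseudocount of 5 (Pxn, Sr-CI, Prm and trh), and 1 changed sign, Dsor1 with equal sums. With CG41421 left out of the equal sums, the median was 0.15 for the members and 0.0079 for all genes. For equal sums every Polycomb RNAi value was multiplied by 0.931, which lowers the log2 difference of each gene with reads in that library. Why the summed FPKM differed between the libraries was not tested.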
